A study of Mus musculus with 2 samples.

Results

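Neurog1, Neurod1, Nhlh1, Nhlh2 and Insm1 encode transcription factors of neuronal differentiation, and their surroundings in folded chromosomes were described in neuronal precursors of the mouse olfactory epithelium. The 5 genes were listed by name, Neurog1 among them because the cells were sorted through its reporter, and all 5 were found among the 21755 protein-coding genes of the autosomes and chromosome X in GENCODE M21. The data came from in situ Hi-C, which joins DNA ends that are close together in fixed nuclei and counts the joined pairs. The cells were primary immediate neuronal precursors from FVB/NTac pups of mixed sex that carried Ngn1-GFP, a green fluorescent reporter named for Neurog1. They were taken from the gate P4 of a sort described as one for immature olfactory sensory neurons. The labels list no modification and no treatment. There were 2 biological replicates, one of 2200000 cells and the other of 2100000, crosslinked with 1% formaldehyde and digested with DpnII. Both belong to 1 group, so no condition could be compared with another.

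The authors called boundaries on a contact matrix that combined both replicates. A boundary is a place across which contacts are rarer than on either side, and a domain is the stretch between neighbouring boundaries. The deposited list gives each boundary as an interval of 5 kb with a class and a score, a higher score standing for a stronger boundary. It holds 7841 boundaries, of which 4137 are in the strong class, with scores from 0.5, and 3704 in the weak class below it. The median score is 0.533 and the highest is 3.78, and the 7821 domains have a median length of 260 kb. Because the replicates were pooled before calling, no value below has a replicate error, the depth behind it is unknown, and every comparison is a description without a test. Hi-C measures no expression, so the identity of the sorted cells could not be checked against marker genes. The construction of the reporter is not described in the labels, and whether it alters contacts around Neurog1 was not tested.

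Neurog1 and Neurod1 are basic helix-loop-helix (bHLH) factors, which pair with E proteins and bind E-boxes in DNA. In the olfactory lineage Neurog1 acts in dividing precursors and Neurod1 in their differentiating progeny. Nhlh1 and Nhlh2 are a pair of related bHLH factors of newly formed neurons, and Insm1 is a zinc finger repressor of neuronal and neuroendocrine precursors. Domains can limit which enhancers meet which promoters, and many boundaries bind CTCF, whose sites on facing sides of a domain often point inward, towards each other.

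The 5 genes lay in domains of 145 to 250 kb, each shorter than the median of 275 kb over the 20428 protein-coding genes with a boundary on both sides of the start. That gene median has quartiles of 195 and 395 kb, and the median of the 5 was 185 kb. This rests on weak boundaries for 3 of the genes. With strong boundaries alone the domains of Neurod1, Nhlh1 and Nhlh2 were 560, 375 and 865 kb, those of Neurog1 and Insm1 were as before, and 3 of the 5 (Neurog1, Nhlh1 and Insm1) were shorter than the gene median, which was then 485 kb. The domains differed widely in how strong the borders were and in who shared them. Neurog1 and Insm1 stood between strong boundaries, and Neurod1, Nhlh1 and Nhlh2 each between a strong and a weak one. Of the 10 flanking boundaries, 7 were strong and 3 weak, where 4137 of all 7841 boundaries were strong. Each weak one lay beside a different gene, Neurod1, Nhlh1 or Nhlh2.

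**Figure D1:**
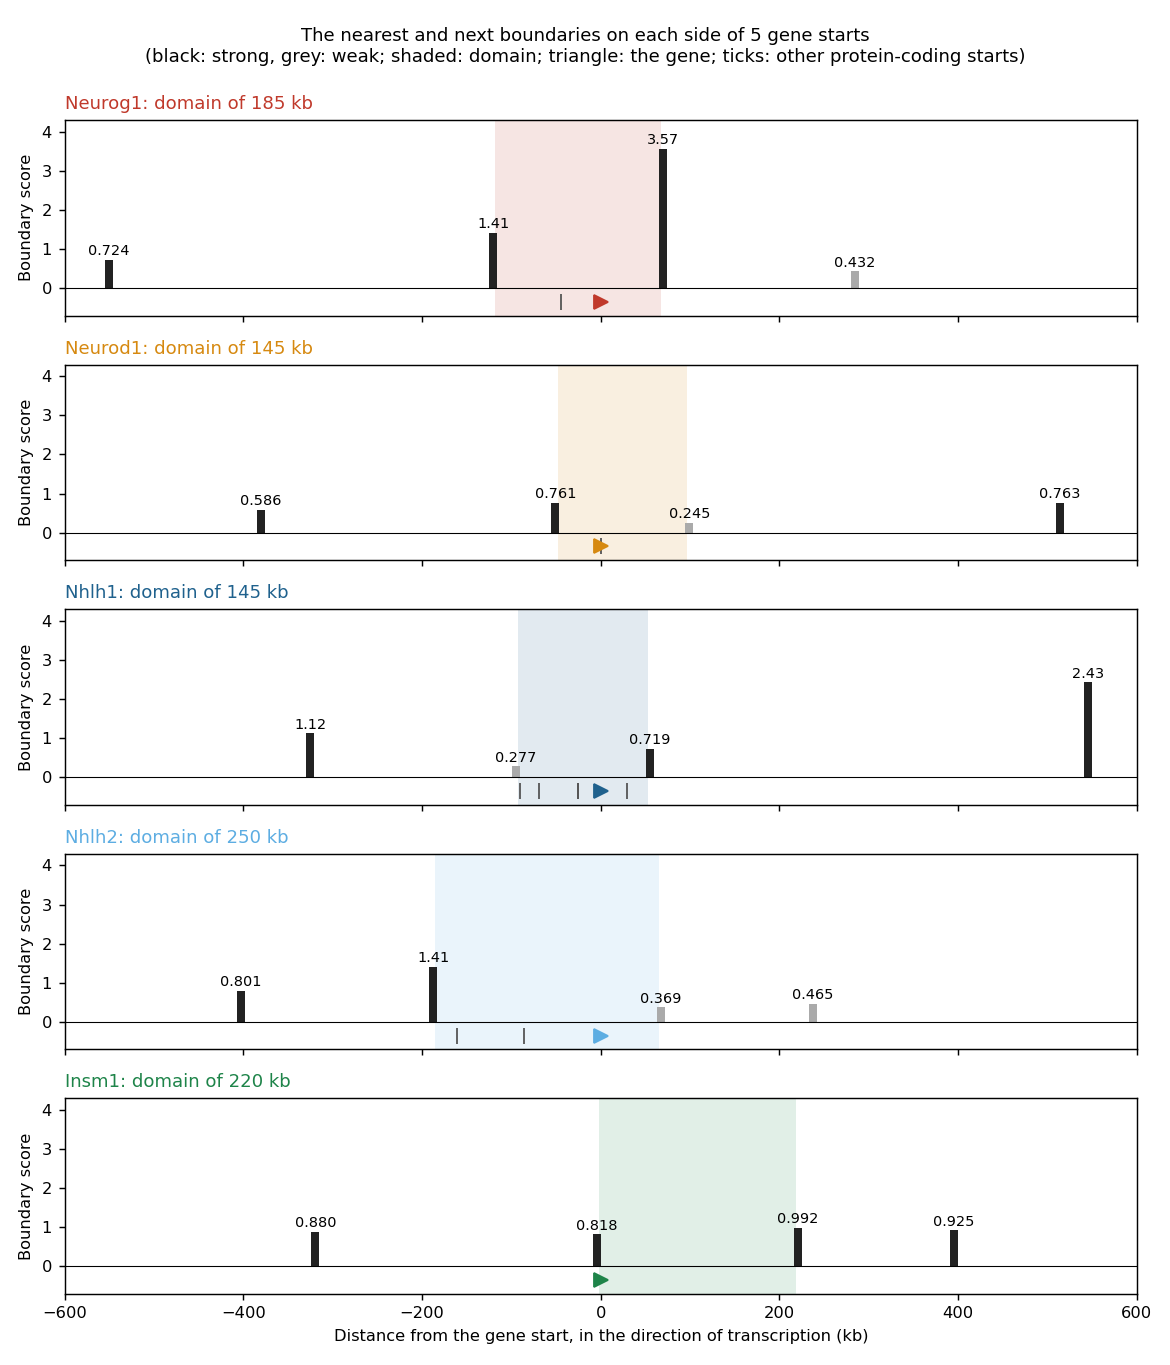
Boundaries around the 5 genes, with distance from the gene start along the direction of transcription (kb) on the horizontal axis and the authors' boundary score as bar height, black for strong and grey for weak. The shaded domain is 185 kb around Neurog1, 145 kb around Neurod1 and Nhlh1, 250 kb around Nhlh2 and 220 kb around Insm1, where the gene sits at the edge and not in the interior.

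Neurog1 (ENSMUSG00000048904.5) is a gene of 1.69 kb on the minus strand at chr13:56250478-56252163 in GRCm38. Its domain, chr13:56185001-56370000, was bordered on the downstream side by a boundary with a score of 3.57 and on the upstream side by one with a score of 1.41. The downstream boundary, chr13:56180001-56185000, began 67.2 kb from the Neurog1 start and ranked 2 of 7841 by score. The upstream boundary, chr13:56370001-56375000, was 118 kb away and ranked 552. Both borders were therefore high at once: by the score of its weaker border the Neurog1 domain ranked 11 of 7821 domains, and by its stronger border 2. The rank by the stronger border is shared with the domain on the other side of that boundary. Among protein-coding genes Neurog1 was at percentile 99.98 for the stronger border and 99.7 for the weaker. The genes of that neighbouring domain have the same stronger border. The gene itself was not close to either border, since its distance to the nearest was at percentile 57.8 of all genes.

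Outside this pair of boundaries the scores fell. The next boundary beyond the downstream border was weak, with a score of 0.432, and lay 282 kb from Neurog1, and the next beyond the upstream border had a score of 0.724 and lay 548 kb away, over an exon of the channel gene Trpc7. Within 500 kb of the Neurog1 start there were 3 boundaries in all, against a median of 4 over all protein-coding genes. The domain on the far side of the downstream boundary was 210 kb long and held the starts of H2afy, which encodes a macroH2A histone, and Tifab, which starts 1.12 kb from the boundary. The domain beyond the upstream border was 425 kb long and held 8 protein-coding starts, Tgfbi, Smad5 and Il9 among them. The boundary on that side lay between genes, 51.6 kb from the nearest start, that of the predicted gene Gm3045.

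One other protein-coding gene, Cxcl14, started inside the Neurog1 domain, 44.4 kb upstream of Neurog1. Cxcl14 encodes a chemokine. The rest of the domain's annotation was noncoding: the lincRNA 4930550C17Rik started 8.22 kb downstream of the Neurog1 start, the lincRNA Gm10782 started 111 kb upstream, and 2 processed pseudogenes and 1 snRNA gene made up the remainder. With 2 protein-coding starts, the domain was below the median of 6 over all genes, whose quartiles are 3 and 11. Its sequence was rich in G and C, 48.5% against a median of 42.3% over all domains. It was poor in repeats of any kind masked in the reference sequence, which covered 19.8% against a median of 30.7%.

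**Figure D2:**
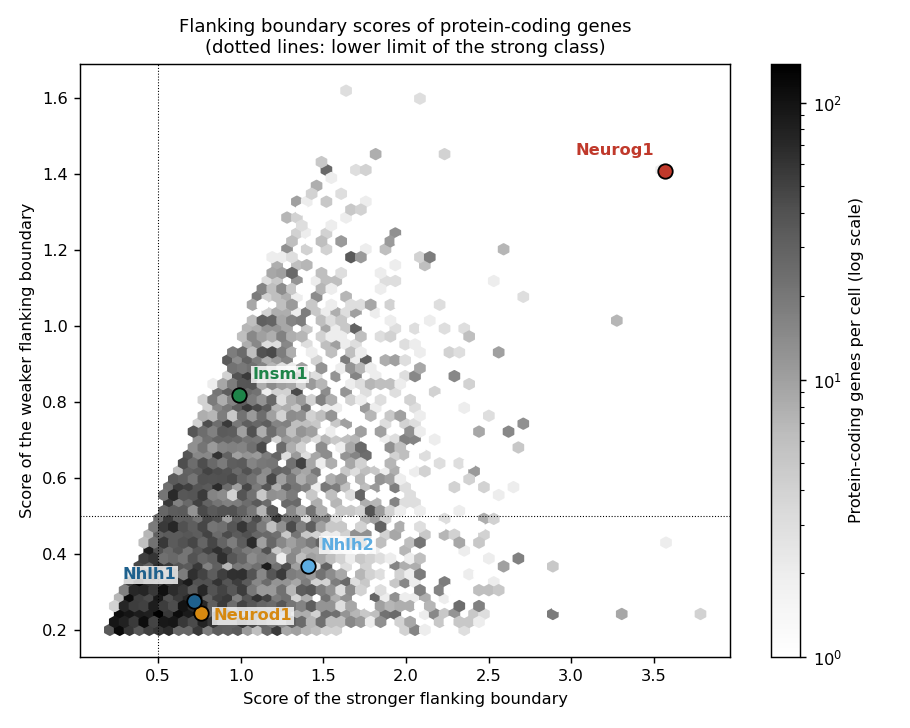
Score of the weaker against the score of the stronger flanking boundary for protein-coding genes, with grey cells giving the number of genes on a log scale and coloured points the 5 genes. Neurog1 lies at 3.57 and 1.41, a point it shares with Cxcl14 of the same domain, Insm1 has both scores above the 0.5 that begins the strong class, and Neurod1, Nhlh1 and Nhlh2 have weaker borders of 0.245, 0.277 and 0.369.

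Neurod1 (ENSMUSG00000034701.9), a gene of 4.23 kb at chr2:79452521-79456751 on the minus strand, had the least marked borders of the 5 by its weaker side. Its domain of 145 kb, chr2:79360001-79505000, was at percentile 10.2 of all genes for length. The upstream boundary, chr2:79505001-79510000, was 48.3 kb from the start and had a score of 0.761, and the downstream one, chr2:79355001-79360000, was 96.8 kb away with a score of 0.245. The downstream boundary ranked 6910 of 7841, close to the bottom of the list. The weaker of the pair was at percentile 14.5 of all genes and the stronger at 34.6.

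Cerkl, a ceramide kinase-like gene known from inherited retinal degeneration, was the only other protein-coding gene that started in the Neurod1 domain. Its annotated model begins 0.034 kb from that of Neurod1 and is transcribed in the same direction, and it spans Neurod1. That start comes from 1 of the 12 Cerkl transcripts, which is not annotated as coding. The 1 transcript with a consensus coding sequence starts 27.9 kb downstream of the Neurod1 start, also inside the domain. The Cerkl model is 126 kb long, runs through the weak downstream boundary, which overlaps one of its exons, and has 76.7% of its length inside the domain. It covered 66.7% of the domain. The lincRNA Gm26755 was the remaining gene to start there, 2.77 kb from the Neurod1 start. On the other side the strong boundary was intergenic, with the nearest protein-coding starts to it being those of the Cerkl model at 48.2 kb and Neurod1 at 48.3 kb. The neighbouring domains were longer than that of Neurod1 and held few genes, 410 kb with the integrin gene Itga4 on the downstream side and 325 kb with Itprid2 and Ppp1r1c on the upstream side.

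Nhlh1 (ENSMUSG00000051251.3; 5.28 kb, chr1:172052292-172057573, minus strand) had the same domain length as Neurod1, 145 kb, but the most crowded domain of the 5. Its downstream boundary, chr1:172000001-172005000, was strong with a score of 0.719 at 52.6 kb, and its upstream boundary, chr1:172150001-172155000, was weak with a score of 0.277 at 92.4 kb. These scores were at percentiles 30.8 and 23.0 of all genes for the stronger and the weaker border. The domain held 6 protein-coding starts, the median over all genes.

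The genes that share the Nhlh1 domain have general roles in cells. Vangl2, a core gene of planar cell polarity, started 29.1 kb downstream of Nhlh1. Copa and Ncstn started 25.0 and 25.2 kb upstream, in opposite directions from nearly the same place. Copa encodes a subunit of the vesicle coat COPI, and Ncstn encodes nicastrin, the subunit of gamma-secretase that takes part in cutting Notch receptors. Pex19, an import factor of peroxisomal membrane proteins, started 69.2 kb upstream, and Dcaf8, which encodes a substrate receptor of a ubiquitin ligase, 90.5 kb upstream. Both borders cut into genes of the domain. The strong one overlapped the last exon of Vangl2, 85.3% of which lay inside, and the weak one lay in an intron of Dcaf8, 1.92 kb from its start, so that only 3.92% of Dcaf8 was inside. The next boundary beyond the downstream border, 543 kb from Nhlh1, had a score of 2.43 and ranked 32 of 7841.

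Nhlh2 (ENSMUSG00000048540.8; 5.42 kb, chr3:102010076-102015492, plus strand) lay in the longest domain of the 5, 250 kb at chr3:101825001-102075000, which was at percentile 43.3 of all genes. Its borders were the most unequal, with scores of 1.41 upstream and 0.369 downstream, a ratio of 3.82. The strong upstream boundary, chr3:101820001-101825000, was 185 kb from the start and the weak downstream one, chr3:102075001-102080000, was 64.9 kb away. The score ratio was 3.11 at Neurod1, 2.60 at Nhlh1, 2.54 at Neurog1 and 1.21 at Insm1.

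The Nhlh2 domain held 3 protein-coding starts. Mab21l3, of the Mab-21 family, started 161 kb upstream and Slc22a15, which encodes a membrane transporter of the organic ion carrier family, 85.6 kb upstream. Both are transcribed away from Nhlh2. The strong boundary overlapped an exon of Mab21l3, 66.8% of which lay inside the domain. No protein-coding gene started between Nhlh2 and its weak boundary, and the nearest start to that boundary was that of Casq2, 6.42 kb away on its far side. The domain beyond the strong boundary was 210 kb long and held 0 protein-coding starts, and at its far end lay a boundary with a score of 0.801.

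The strong upstream boundary of Nhlh2 was the only one of the 10 with an exact match to the CTCF core motif inside its 5 kb interval, where 6.90% of all boundaries had one. The site is shown because it carries the motif at the stronger border of the pair. It lies on the plus strand in an intron of Mab21l3, at chr3:101822219-101822248 for the 30 bases printed, and reads towards Nhlh2, with the 12 bases of the motif in capitals.
Nhlh2 upstream boundary: ccatagcggCCAGCAGAGGGCatcagactc

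Nhlh1 and Nhlh2 are paralogs on different chromosomes, and genes of some other families lie near both. Which genes to set side by side here was chosen after the neighbours had been seen. With weak boundaries counted, the order of these genes relative to the boundaries was not the same at both loci. Vangl2 was inside the Nhlh1 domain with 0 boundaries between them, whereas its paralog Vangl1 started 195 kb downstream of Nhlh2 on the far side of the boundary with a score of 0.369. The calsequestrin genes Casq1 and Casq2, for calcium storage proteins of muscle, were each separated from the Nhlh gene by 1 weak boundary. Casq1 started 162 kb upstream of Nhlh1 beyond the boundary of 0.277, and Casq2 started 76.3 kb downstream of Nhlh2 beyond the boundary of 0.369. With strong boundaries alone the domains of Nhlh1 and Nhlh2 were 375 and 865 kb. The Nhlh1 domain then held the starts of Vangl2 and Casq1, and the Nhlh2 domain those of Vangl1 and Casq2. The difference between the loci in these genes thus rests on weak boundaries.

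From the immunoglobulin superfamily, of which not every nearby gene was taken, Igsf8 started 204 kb upstream of Nhlh1 behind 1 weak boundary and Igsf3 started 633 kb upstream of Nhlh2 behind 3 strong ones.

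**Figure D3:**
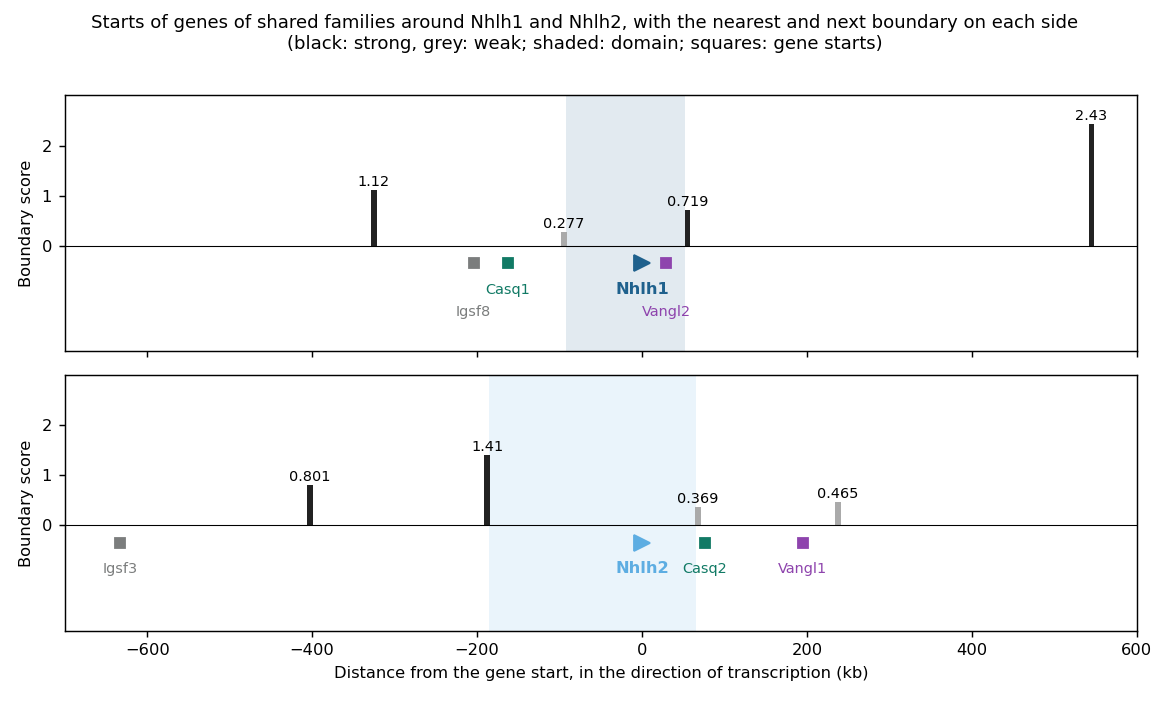
Starts of Vangl1, Vangl2, Casq1, Casq2, Igsf3 and Igsf8 (squares) around Nhlh1 and Nhlh2, by distance along the direction of transcription in kb, with the score of the nearest and the next boundary on each side as bar height. With weak boundaries counted, Vangl2 alone lies in the shaded domain of an Nhlh gene. Igsf3, 633 kb upstream of Nhlh2, is the farthest of those shown.

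Insm1 (ENSMUSG00000068154.5; 3.10 kb, chr2:146221921-146225020, plus strand) was the one gene of the 5 that started next to a boundary. Its upstream boundary, chr2:146215001-146220000, ended 1.92 kb before the Insm1 start and had a score of 0.818. The downstream boundary, chr2:146440001-146445000, had a score of 0.992 and lay 218 kb away. Thus Insm1 was at one edge of its domain of 220 kb, at 0.873% of the length, against a median of 22.6% over all genes. For the other 4 genes this share was between 26.0% at Nhlh2 and 36.3% at Neurog1.

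Both borders of the Insm1 domain were strong and nearly equal. The weaker was at percentile 88.9 of all genes, and by it the domain ranked 584 of 7821. The boundaries next further out were strong as well, with scores of 0.880 at 317 kb and 0.925 at 393 kb, and all 4 boundaries within 500 kb of Insm1 were in the strong class. At each of the other 4 genes, 2 boundaries within that distance were strong. How many protein-coding genes have only strong boundaries in this range was not counted.

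Insm1 was also the only protein-coding gene to start in its domain, and 0 others started within 100 kb of it, against a median of 3 over all genes. The boundary beside it overlapped the last exon of Cfap61, a gene of motile cilia, which ends 6.88 kb upstream of Insm1. The interior of the domain was nonetheless mostly covered by another gene. Ralgapa2, which encodes a catalytic subunit of a GTPase-activating complex for Ral, started outside and ran into the domain across the downstream boundary from the other strand. Its body covered 91.0% of the domain and ended 18.0 kb from the Insm1 start. The antisense RNA gene A930019D19Rik started 37.4 kb downstream of Insm1, and 1 processed pseudogene completed the domain. Repeats covered 18.7% of the sequence, at percentile 3.41 of all domains.

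Insm1 was the single gene of the 5 with an exact CTCF core match within 10 kb of both borders, 1 of 5 where 9.95% of protein-coding genes had this. The sites are shown because they are at the boundary next to the gene and at the opposite border. The upstream one (chr2:146214913-146214942, plus strand) lies 0.079 kb outside the boundary interval in the last exon of Cfap61 and reads inward, towards Insm1. The downstream one (chr2:146449950-146449979, plus strand) lies 4.97 kb beyond its interval in an intron of Ralgapa2 and reads outward, away from the domain. Capitals mark the motif.
Insm1 upstream boundary: ccgtgtattCCAGTAGGTGGCgctaggctg
Insm1 downstream boundary: gcccatgagCCAGTAGATGGCcctgcactc

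Across the 5 genes, matches to the CTCF core motif on either strand were found within 10 kb of 3 of the 10 flanking boundaries, where 26.0% of all boundaries had one. Of these matches 2 read inward and 1 outward. A pair of facing inward matches was seen at 0 of the 5 genes, against 2.85% of protein-coding genes, so the 0 of 5 is near the background. The boundary of 3.57 beside Neurog1 held no exact match within 10 kb. The motif is a short core written as fixed letters, and a sequence without it may still bind CTCF, whose binding was not measured here.

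With 1 mismatch allowed, a search added after the exact one had been seen, 5 of the 10 boundary intervals held a match, where 44.7% of all boundaries did. There were 7 such matches, 6 inward and 1 outward. How the matches of this search point over all boundaries was not counted, so the 6 inward ones have no background beside them. The upstream boundary of Neurog1 (score 1.41) held 2 of them, both on the minus strand and so reading towards Neurog1, and its downstream boundary (score 3.57) held 0. Both sites are printed because they lie in the Neurog1 border with the lower score while the higher-scoring border has none. They are at chr13:56371595-56371624 and chr13:56372911-56372940, 5′ to 3′ on the minus strand, with the 12 bases of the motif in capitals.
Neurog1 upstream boundary, first site: gctggctccCCAGCAGGTGGGagcaaagac
Neurog1 upstream boundary, second site: acgcaaaggCCAGCAGAGGGTgcaagagtt

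The enzyme sites that Hi-C depends on were few at some of these borders. The interval beside Insm1 held 7 DpnII sites and the one of 3.57 beside Neurog1 held 8, against a median of 12 over all boundaries and percentiles of 9.95 and 16.5. The other 8 intervals held between 9 and 14. Whether the number of sites plays a part in the scores was not tested. No base of the 10 intervals was unassembled.

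Counted over all 5 genes, 1 (20%) started within 10 kb of a boundary, where 16.4% of protein-coding genes did. Strong boundaries on both sides were found for 2 (40%), Neurog1 and Insm1, where the share over protein-coding genes was 38.2%. A domain with no other protein-coding start was found for 1 (20%), Insm1, against 9.55%. With 5 genes a single gene is 20%, so none of these counts stands away from the background. The nearest boundary was upstream of the start in 2 genes (Neurod1 and Insm1) and downstream in 3, and it was the stronger of the pair in 3 genes (Neurog1, Neurod1 and Nhlh1) and the weaker in 2.

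By distance to the nearest boundary the order was Insm1 at 1.92 kb, Neurod1 at 48.3 kb, Nhlh1 at 52.6 kb, Nhlh2 at 64.9 kb and Neurog1 at 67.2 kb. The last 4 all lay near the gene median of 55.3 kb, and the steps from Neurod1 to Nhlh1 and from Nhlh2 to Neurog1 are smaller than the 5 kb interval to which a boundary is placed. By the higher score the order was Neurog1, Nhlh2, Insm1, Neurod1 and Nhlh1, the last pair differing by 0.761 against 0.719. Without replicate values it cannot be said whether neighbours in this order differ. All 5 domains had a lower repeat share than the median domain, from 18.7% at Insm1 to 28.2% at Neurod1. Domain GC content ranged from 40.5% at Neurod1 to 48.5% at Neurog1 and lay on both sides of its median. The repeat and GC medians count every domain once, with or without genes, whereas the gene medians count every gene. The repeat share was not set beside a median over genes.

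The wider set of 35 related genes, listed by role with earlier results on Hes6 and Gadd45g known, gave the 5 genes a frame. Of these 35, 6 (17.1%) started within 10 kb of a boundary, beside the 16.4% of all protein-coding genes. Of the 33 with a boundary on either side, 16 (48.5%) had strong boundaries on both sides and 8 (24.2%) were alone in their domain, beside 38.2% and 9.55%. The median domain length was 265 kb. The 19 bHLH genes and paralogs, not all of them neural, had a median domain of 215 kb, ranging from 125 to 510 kb. Strong boundaries on both sides were found for 11 of the 19. Olig1 and Olig2 share a domain and were each counted, among the 11 and among the 16.

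Among the 6 paralogs, 0 started within 10 kb of a boundary, so the position of Insm1 was not shared by Insm2. Insm2 was 89.4 kb from its nearest boundary in a domain of 335 kb, with 4 protein-coding starts and scores of 0.659 and 0.918. Neurog2, the paralog of Neurog1 in a domain of 145 kb, had nearly equal borders of 0.930 and 0.825 and was the sole protein-coding start in it, 18.1 kb from the nearest boundary. Neurog3, the pancreatic member of that family, was 127 kb from its nearest boundary in a domain of 415 kb with scores of 1.06 and 0.486. The border scores of both paralogs were thus below the pair of 3.57 and 1.41 at Neurog1.

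The Neurod paralogs had domains on both sides of that of Neurod1 in length. Neurod4 had the shortest, 125 kb, with scores of 0.662 and 0.601 and 2 starts. Neurod2 had 200 kb, scores of 0.741 and 0.345 and 9 starts. Neurod6 had 430 kb, scores of 0.938 and 0.424 and 2 starts, and its nearest boundary was 161 kb away. Each of these paralogs had a weaker border above the 0.245 of Neurod1.

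**Figure D4:**
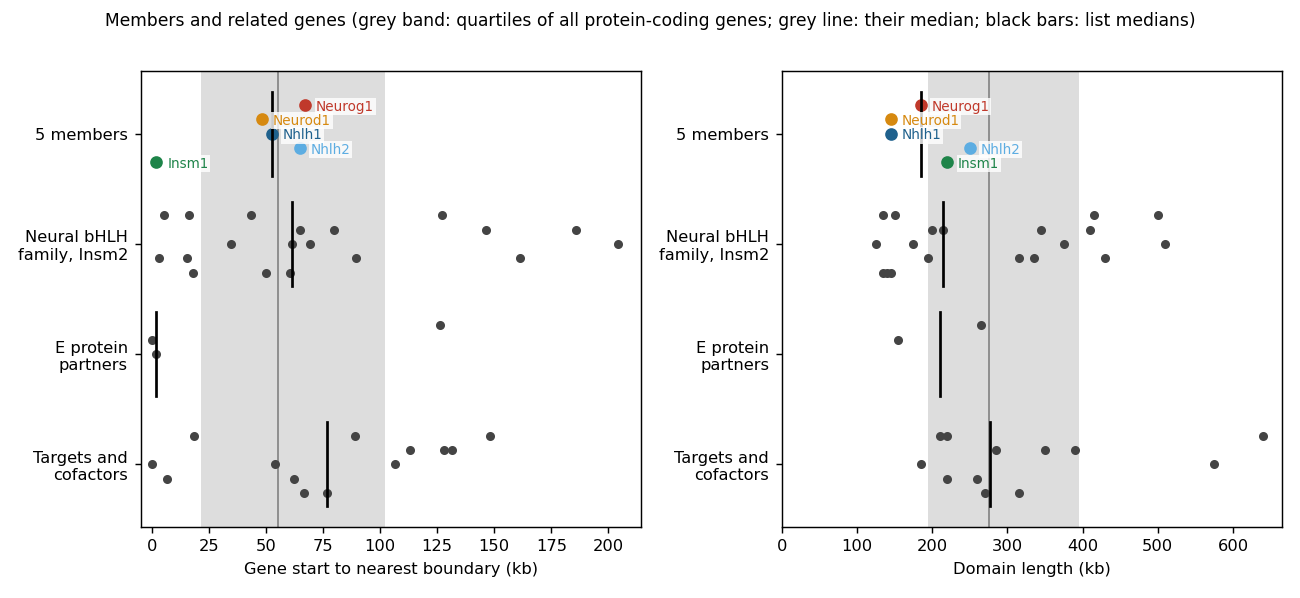
Distance from the gene start to the nearest boundary (left, kb) and domain length (right, kb) of the 5 genes and of 35 related genes by role, with list medians as black bars and the quartiles and median of all protein-coding genes as a grey band and line. Of the 5 genes, 4 lie between 48.3 and 67.2 kb from a boundary and Insm1 at 1.92 kb, and all 5 domains are shorter than the gene median of 275 kb, which with strong boundaries alone holds for 3 of them against a median of 485 kb.

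The related genes that did start near a boundary came from each role. In the bHLH family these were Olig2 (5.46 kb from a boundary of 0.581) and Bhlhe23 (3.10 kb, 0.760). Of the 3 E proteins, the partners with which the bHLH factors pair, Tcf4 started inside a boundary of 0.875 and Tcf12 started 1.87 kb from one of 0.469, while Tcf3 was 126 kb away. Among 13 targets and cofactors, the growth arrest gene Gadd45g started 6.68 kb from a boundary of 1.18, and the RNA-binding protein gene Elavl4 inside one of 0.454.

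Promoter sequence was available from the RefSeq table of GRCm38.p6 for 4 of the 5 genes, all but Insm1, as windows from 250 bases before to 50 after the RefSeq start. The promoters of Neurog1 and Neurod1 had GC contents of 69.3% and 66.7% and observed over expected CpG of 0.891 and 0.837. Those of Nhlh1 and Nhlh2 had 56.3% and 43.3% and CpG ratios of 0.0840 and 0.143. The medians over 32851 promoters of the table were 52.7% and 0.384. This set, also used for the E-boxes below, is not the set of 21755 protein-coding genes used elsewhere.

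E-boxes, the sites that bHLH factors bind, were searched as CANNTG, a pattern that reads the same on both strands. One or more was present in 72.3% of all promoters of the table, and Neurog1 and Neurod1 had 1 each, Nhlh1 had 2 and Nhlh2 had 4. The form CAGATG, counted on either strand, was present in 17.2% of all promoters and once in each of the Nhlh promoters. The form CAGCTG was present in 16.3% and, of the 4, in that of Nhlh2. A match is a run of letters in the window and no evidence of binding. The CAGATG sites are shown because both Nhlh paralogs have one. It lies 203 bases before the RefSeq start of Nhlh1 (chr1:172057782-172057811, minus strand) and 127 bases before that of Nhlh2 (chr3:102010006-102010035, plus strand). The one E-box before the RefSeq start of Neurod1 is given for contrast, at 242 bases (chr2:79456857-79456886, minus strand). The RefSeq starts differ from the GENCODE starts used elsewhere by up to 115 bases, at Neurod1. Capitals mark the E-box.
Nhlh1: atgcatggagaaCAGATGtccctgctcccc
Nhlh2: cccacactgtgaCAGATGtcaagtccaatt
Neurod1: gggaagacCATATGgcgcatgccggggagg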

How the data were processed

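In situ Hi-C contacts of both replicates were combined by the submitters and boundaries were called on the combined matrix on GRCm38, per the series' design text. Which program called them, with which settings, is not given in the sources used here. In the deposited list an interval of 5 kb has a class and a score. The score is the authors' own value and was used only to describe and rank boundaries within the list.

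Gene starts were the 5′ ends of GENCODE M21 gene models. The nearest boundary on each side, measured to its facing edge, defined the domain, and genes that start inside a boundary interval (1104) had no domain. A start within 10 kb of an interval counted as near. Percentiles are over the protein-coding genes of the 19 autosomes and chromosome X, 21755 for the distance to a boundary and the 20428 with a boundary on both sides for domain length, scores and starts in the domain. CTCF core matches were exact, on both strands, in intervals extended by 10 kb. Scripts in Python 3.11.15 were tested on simulated intervals. All 5 genes, the other genes that start in their domains, the nearest start to each flanking boundary, the paralogs and the related genes near a boundary are named. The genes and lists were chosen with earlier results of these data known. Contact matrices, insulation and compartment tracks were not analysed here.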

Additional observations from a re-analysis of the deposited data

How the results depend on the processing

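Within 50 kb in place of 10 kb, 2 of the 5 genes counted as near a boundary, where 46.3% of all protein-coding genes did. Of the 35 related genes, 10 were near within 25 kb (27.8% of all genes) and 13 within 50 kb. With a score of at least 1 asked of both borders, 1 of the 5 genes, Neurog1, passed in place of 2. The CTCF core search gave 1 match in the bare intervals and, with 1 mismatch allowed (added after the exact search had been seen), 7, against 3 within 10 kb. With strong boundaries alone, or with those at or above the median score, the domains of Neurod1, Nhlh1 and Nhlh2 grew to 560, 375 and 865 kb, beside gene medians of 485 and 520 kb in these settings, with 3, 14 and 6 protein-coding starts, and the boundary nearest to Nhlh2 lay 185 kb away. The domains of Neurog1 and Insm1 were the same in both settings, at 185 and 220 kb, so that 3 of the 5 were below the gene median in place of 5. Merging boundaries closer than 50 kb changed no value, as the shortest domain is 55 kb. Measured to boundary midpoints, each distance grew by less than the 5 kb interval, and the nearest transcript start moved only Nhlh2, to 64.8 kb. Counting gene bodies gave Insm1 a second gene, Ralgapa2, for 2 in its domain. No paired analysis was possible because the replicates form 1 group and were pooled before the calls, which also leaves no fit without a replicate. The depth of the matrix is unknown, so whether more contacts would add or remove a weak boundary beside these genes was not tested.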

Other observations

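The related genes hold other proneural factors, which are given here by name though they fall outside the naming rule and were picked after their values had been seen. Atoh1, a proneural factor of hair cells and cerebellar granule cells, was the only protein-coding start of a domain of 375 kb, with borders of 0.910 and 0.350. Olig1 and Olig2 shared a domain of 135 kb with no other protein-coding start, between boundaries of 0.581 and 1.12, with Olig2 next to the first and Olig1 49.8 kb from it. The targets Myt1 and Cbfa2t2 had the highest stronger borders among the related genes with a domain, 1.81 and 1.93. St18 and Myt1l, which belong to the same zinc finger family as Myt1, had low scores on both sides, 0.431 and 0.275 for St18 and 0.334 and 0.296 for Myt1l.

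The domain downstream of that of Nhlh1 was 485 kb long, held 9 protein-coding starts, among them the SLAM family receptor genes of immune cells Slamf1, Slamf6, Slamf7, Cd84, Ly9, Cd48 and Cd244a, and was closed on its far side by the boundary of 2.43.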
